A study of Bos taurus with 54 samples.

Results

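RAB small GTPases are the molecular switches of membrane traffic. Bound to GTP and held on a membrane, each RAB recruits effector proteins that move, tether and fuse vesicles, and different RABs mark different organelles. Exchange factors switch them on, and GTPase-activating proteins of the TBC family switch them off. In blood leukocytes, neutrophils above all, they are known for their part in phagosome maturation, degranulation and the recycling of surface receptors.

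The RAB genes examined here were all rows of the count tables whose symbol is RAB followed by a number and at most 1 letter and 1 further digit. The rule found 59 of 32637 gene rows. A RAB gene was reported with a kit where 50% or more of the kit's libraries held 10 or more of its counts, which left 43 genes with Takara and 39 with Lexogen. RAB13 was the closest inside this limit, reaching 10 counts in 15 Takara and 17 Lexogen libraries (RAB17 also in 17 with Lexogen), and RAB39B (12 Takara libraries) and RAB6B (11 Lexogen libraries) were the closest outside it. All 39 were also reported with Takara, 4 were reported with Takara alone (RAB3D, RAB20, RAB26 and RAB33A), and 16 with neither kit.

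The libraries came from the blood of 15 male Holstein calves kept in climate rooms, sampled in the morning (the 6AM samples, labelled Normal, the thermoneutral control) and in the evening after 12 h of heat (the 6PM samples, labelled Heat Stress). Red cells were lysed, so the RNA is that of mixed white cells and platelets, with some hemoglobin RNA (HBB) left. Libraries were made from it with 2 kits that read the 3′ ends of transcripts (25 of 29 RNA samples with both). These were SMART-Seq v4 3′ DE from Takara and QuantSeq 3′ from Lexogen. Of 27 libraries per kit, 26 were compared, 13 control and 13 heat, with 12 animals sampled at both times. Control and heat mean the labelled times throughout, and sources disagree on these. Labels give 14 RNA samples at the control time and 15 at the heat time, while the study describes 15 before and 14 after heat. Animal 20, with a heat label only, was left out for this reason. The study's sample list numbers its calves without naming the animals. Set beside the labels in order of animal number, it places the missing libraries at the opposite time in all 5 animals that lack one. Which is right cannot be told here, and if the labelled times were exchanged throughout, every direction of heat against control below would be reversed and its size kept. Heat and time of day changed together and cannot be told apart. Labels and methods gave no age for the calves.

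Reads assigned to genes ran from 5140595 to 20699030 per Takara library and from 4516761 to 58521751 per Lexogen library, the deepest being the heat library of animal 15. RAB genes took 0.197% to 0.315% of these reads with Takara and 0.140% to 0.294% with Lexogen. Levels below are CPM, counts scaled to 1000000 reads per library and normalised by TMM, and differences are log2 fold changes of heat over control with their standard error (SE).

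With Takara, 19 of the 43 RAB genes were higher in the libraries labelled heat (background 18.4% of the 12620 genes tested), 2 were lower (background 10.5%) and 22 were not called, at an adjusted p under 0.05 in edgeR's quasi-likelihood test. In bulk blood, fewer cells of a type and less RNA per cell cannot be told apart. The median log2 fold change was 0.38 over the RAB genes and -0.05 over all genes tested. With Lexogen, 4 of the 39 were higher (background 5.09% of 11108 genes) and 0 were lower (background 0.459%). In that kit 5 RAB genes had an unadjusted p under 0.05, as did 1877 of the 11108 genes tested. DESeq2 also called 4 RAB genes higher and 0 lower, and 816 higher and 190 lower of 14821 genes with an adjusted p. The 4 Lexogen genes, RAB43, RAB31, RAB8B and RAB5C, were also called higher with Takara. Of the 19 genes called with Takara, in either direction, that Lexogen also reported, 16 had the same sign there. Among all 39 RAB genes reported with both kits, called or not, 25 had the same sign. Most RNA samples were used with both kits, and the shares over all genes are not given here.

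The scale of the libraries bears on these counts. With the total count in place of TMM as library size, the median of all genes in Takara moved from -0.05 to -0.27, the calls over all genes went from 2325 higher and 1321 lower to 1303 higher and 2185 lower, and the RAB calls went to 10 higher and 3 lower. The RAB median was then 0.01. The 9 Takara calls lost were RAB2A, RAB4B, RAB5B, RAB5C, RAB9A, RAB10, RAB32, RAB33B and RAB43, and Lexogen lost RAB5C. With the library of animal 20 added as heat, as labelled, Takara gave 19 RAB genes higher and 4 lower and Lexogen 4 and 0. Over all genes that setting called 2528 higher and 1672 lower of 12652 with Takara, and 729 and 92 of 11222 with Lexogen. With the library of animal 20 counted as a control, and the other labels kept, 0 RAB genes were called in either kit by edgeR. An unadjusted p under 0.05 was then found for 21 RAB genes with Takara and 4 with Lexogen. Over all genes that setting called 0 with Takara and 2 with Lexogen, and 3804 of 12652 and 1303 of 11222 had an unadjusted p under 0.05.

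**Figure D1:**
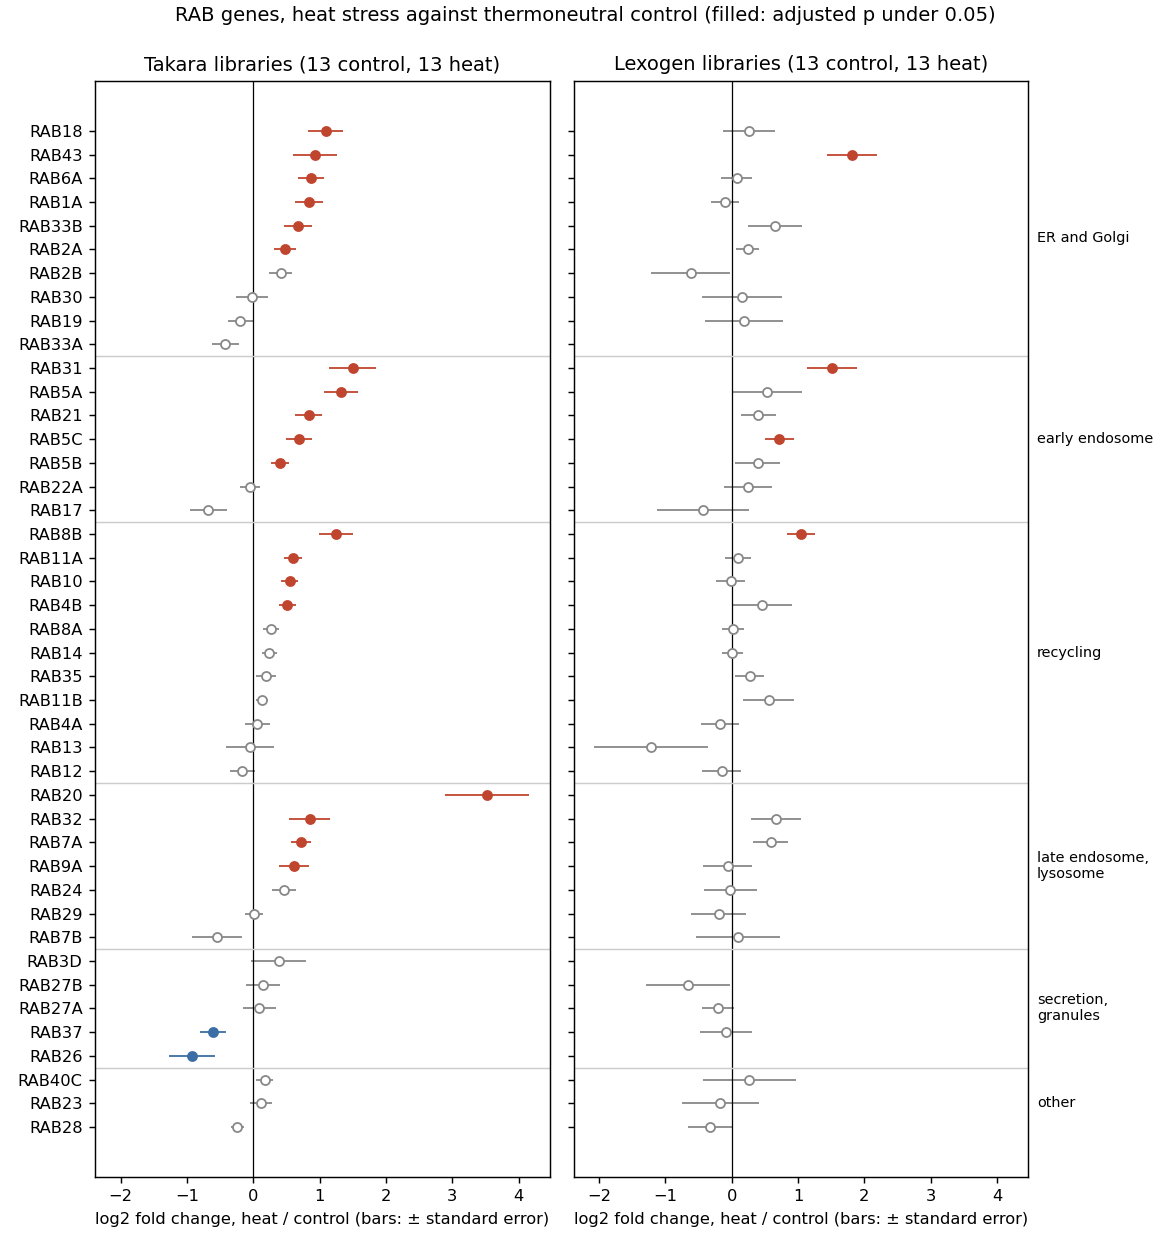
Log2 fold change of each reported RAB gene, heat over control, with its standard error, in Takara (left) and Lexogen (right) libraries, ordered by the compartment in which the RAB is known to act. Filled points passed an adjusted p of 0.05: 19 lie right of 0 and 2 left of 0 with Takara, and 4 lie right of 0 with Lexogen.

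The RABs of the early endosome, where endocytosed cargo is first sorted, were higher in 5 of 7 cases with Takara (background 18.4%). With Lexogen 2 of 7 were higher (background 5.09%). Each compartment group holds few genes, and none was tested as a set. RAB31 acts between the trans-Golgi network, endosomes and phagosomes. Its Takara level ran from 14.5 to 75.2 CPM in control libraries (median 44.01) and from 24.9 to 281.01 CPM in heat libraries (median 92.6). The groups overlapped, with 8 of 13 heat libraries above all controls and the rest among them. The log2 fold change was 1.496 (SE 0.36, edgeR adjusted p = 0.00297), and 9 of 12 animals were higher in heat.

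RAB5A, a master regulator of early endosome fusion, ran from 2.39 to 4.57 CPM in control (median 3.75) and from 2.68 to 22.6 CPM in heat (median 7.30) with Takara. This put 11 of 13 heat libraries above every control, with a log2 fold change of 1.32 (SE 0.26, edgeR adjusted p = 0.00082). RAB21, which binds integrins on their way into the cell, ran from 17.6 to 34.98 CPM in control (median 26.7) and from 13.8 to 94.97 CPM in heat (median 40.1). Its groups overlapped, with 8 heat libraries above and 1 below all controls, and its log2 fold change was 0.84 (SE 0.21, edgeR adjusted p = 0.00378). The other isoforms of RAB5 were also higher with Takara. RAB5C ran from 8.13 to 16.01 CPM in control (median 12.3) and from 9.13 to 35.2 CPM in heat (median 15.5), a log2 fold change of 0.69 (SE 0.19, edgeR adjusted p = 0.00907), and RAB5B had a log2 fold change of 0.39 (SE 0.13). RAB22A, the closest relative of RAB31, had -0.05, and RAB17 had -0.68 (edgeR adjusted p = 0.0716, or 0.045 with the animal as a block).

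The late endosome, lysosome and phagosome group had 4 of 7 members higher with Takara (background 18.4%), the largest RAB change among them. With Lexogen 0 of 6 were called (backgrounds 5.09% higher and 0.459% lower). RAB20, known from phagosome maturation in macrophages, was near the limit of detection in control blood, from 0.149 to 3.09 CPM (median 0.834). In heat it ran from 0.0837 to 42.998 CPM (median 9.04), with 7 libraries above all controls and 1 below. The log2 fold change was 3.52 (SE 0.63, edgeR adjusted p = 0.000457), and 9 of 12 animals were higher. Lexogen gave RAB20 at least 1 count in only 8 of 27 libraries, so it was not reported there. The highest Lexogen control held 1.10 CPM, and 3 heat libraries were above it, up to 10.6 CPM.

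RAB32, which serves lysosome-related organelles, ran from 22.95 to 149 CPM in control (median 111) and from 27.004 to 309 CPM in heat (median 156) with Takara. Its log2 fold change was 0.85 (SE 0.31, edgeR adjusted p = 0.0393), with 7 heat libraries above all controls. RAB7A, the RAB of late endosomes and of fusion with lysosomes, ran from 44.9 to 71.6 CPM in control (median 54.3) and from 48.6 to 150.0 CPM in heat (median 81.4). It was higher in 11 of 12 animals, and the log2 fold change was 0.71 (SE 0.15, edgeR adjusted p = 0.00135). With Lexogen RAB7A had 0.59 (SE 0.26) and did not pass (edgeR adjusted p = 0.222). RAB9A, which returns receptors from late endosomes to the Golgi, was the fourth Takara call at 0.61, lost with the animal as a block (edgeR adjusted p = 0.0595). RAB24, a RAB linked to autophagy, had 0.46 and did not pass (edgeR adjusted p = 0.0565), but passed with the block (edgeR adjusted p = 0.0491).

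**Figure D2:**
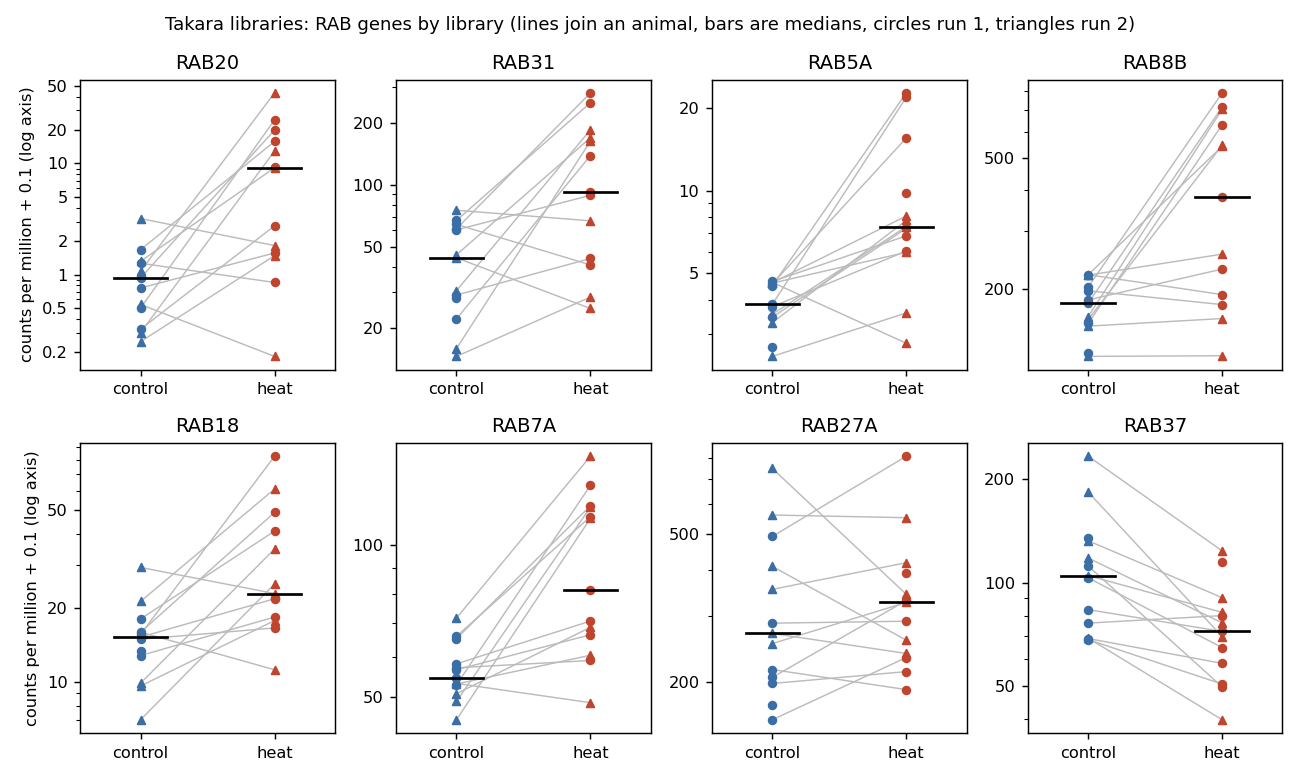
CPM plus 0.1 on a log axis in each Takara library for 8 RAB genes, control in blue and heat in red, with lines joining an animal and bars at the medians. RAB20, RAB31 and RAB8B spread widely in heat, where 7, 8 and 9 of 13 libraries lie above all controls, while RAB27A overlaps between the groups and RAB37 is lower in heat in 11 of 12 animals.

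Among RABs of recycling and delivery to the plasma membrane, 4 of 11 were higher with Takara (background 18.4%). With Lexogen 1 of 11 was higher (background 5.09%). RAB8B, which directs vesicles to the cell surface, was the strongest of this group. It ran from 124 to 221 CPM in control (median 181) and from 125 to 792 CPM in heat (median 381) with Takara, with 9 of 13 heat libraries above all controls. The log2 fold change was 1.24 (SE 0.25, edgeR adjusted p = 0.000988). RAB11A and RAB4B, both of recycling endosomes, had 0.60 and 0.51, and RAB10, a RAB of exocytic and recycling traffic, had 0.54 and was higher in 12 of 12 animals. The remaining 7 members, among them RAB8A at 0.27, ran from -0.17 to 0.27 and none passed the test.

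The ER and Golgi group had 6 of 10 members higher with Takara (background 18.4%) and 1 of 9 with Lexogen (background 5.09%). RAB18, found on the ER and on lipid droplets, ran from 6.94 to 29.1 CPM in control (median 15.2) and from 11.1 to 82.6 CPM in heat (median 22.8), with only 5 heat libraries above all controls. Its log2 fold change was 1.09 (SE 0.26, edgeR adjusted p = 0.0034). RAB6A, the RAB of traffic within and from the Golgi, ran from 18.8 to 40.9 CPM in control (median 30.1) and from 29.3 to 122 CPM in heat (median 44.5), a log2 fold change of 0.87 (SE 0.19, edgeR adjusted p = 0.00169). RAB1A, needed for transport from ER to Golgi, ran from 16.3 to 39.5 CPM in control (median 31.6) and from 26.8 to 118.8 CPM in heat (median 41.7), a log2 fold change of 0.84 (SE 0.21, edgeR adjusted p = 0.00451). Lexogen gave RAB6A 0.07 (SE 0.23) and RAB1A -0.10 (SE 0.21). RAB33B, a Golgi RAB linked to autophagy, and RAB2A, of ER and Golgi traffic, were the other Takara calls at 0.67 and 0.48. RAB2A did not pass with the animal as a block (edgeR adjusted p = 0.0569).

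RAB43, a Golgi RAB, ran from 22.8 to 87.3 CPM in control (median 56.9) and from 18.6 to 217 CPM in heat (median 142) with Takara. Here 7 heat libraries lay above all controls and 1 below, and the log2 fold change of 0.92 (SE 0.34) passed narrowly (edgeR adjusted p = 0.0394). With the animal as a block the difference was 0.55 and did not pass (edgeR adjusted p = 0.255). 

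Of 5 secretory RABs reported with Takara, edgeR called 0 higher and 2 lower in heat (backgrounds 18.4% and 10.5%), too few genes to read against these shares. RAB26, of secretory granules, ran from 0.877 to 2.92 CPM in control (median 1.97) and from 0.0666 to 2.55 CPM in heat (median 0.723), a log2 fold change of -0.93 (SE 0.34, edgeR adjusted p = 0.0432), and 8 heat libraries lay below all controls. With the animal as a block RAB26 did not pass (edgeR adjusted p = 0.067). RAB37, a RAB of mast cell and other secretory granules, ran from 68.0 to 233 CPM in control (median 104.6) and from 39.7 to 124 CPM in heat (median 71.9), and was lower in 11 of 12 animals. Its log2 fold change was -0.61 (SE 0.20, edgeR adjusted p = 0.0204). Lexogen gave RAB37 -0.09 (SE 0.39). RAB27A, which docks granules of neutrophils and cytotoxic cells, ran from 158 to 749 CPM in control (median 270.1) and from 191 to 807 CPM in heat (median 327), a log2 fold change of 0.09 (SE 0.25, edgeR adjusted p = 0.814). RAB27B had 0.15 (SE 0.26) and RAB3D 0.38 (SE 0.42), and neither passed. The 3 RABs listed under no compartment, RAB23, RAB28 and RAB40C, were not called in either kit by edgeR. Whether the secretory group differed from the other groups was not tested.

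The 4 Lexogen calls were spread in the same way. RAB31 ran from 5.78 to 46.1 CPM in Lexogen controls (median 25.7) and from 8.95 to 252 CPM in heat (median 45.3), a log2 fold change of 1.51 (SE 0.38, edgeR adjusted p = 0.0139). RAB8B ran from 83.0 to 170 CPM in control (median 141) and from 118.99 to 562 CPM in heat (median 199.96), a log2 fold change of 1.05 (SE 0.21, edgeR adjusted p = 0.00255), with 10 of 13 heat libraries above all controls. RAB5C ran from 38.3 to 85.3 CPM in control (median 47.9) and from 34.2 to 190 CPM in heat (median 79.3), a log2 fold change of 0.72 (SE 0.22, edgeR adjusted p = 0.0479). RAB43 ran from 63.9 to 132 CPM in control (median 81.1) and from 48.6 to 672 CPM in heat (median 99.2), a log2 fold change of 1.81 (SE 0.38, edgeR adjusted p = 0.00305). RAB8B was higher in 11 of 12 animals, RAB5C in 10, RAB31 in 9 and RAB43 in 8.

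None of the 4 passed with the animal as a block in Lexogen, where the paired fit gave 0 RAB calls. Of all 11087 genes tested, that fit called 46 higher and 17 lower. The log2 fold changes in that fit were 0.88 for RAB8B (edgeR adjusted p = 0.0593), 0.95 for RAB31 (edgeR adjusted p = 0.152), 0.95 for RAB43 (edgeR adjusted p = 0.201) and 0.57 for RAB5C (edgeR adjusted p = 0.288). In Takara the same block gave 18 RAB genes higher and 2 lower, and 1881 higher and 1281 lower of all 12651 genes. Without the deepest Lexogen library, that of animal 15 in heat, 2 RAB genes passed, RAB43 and RAB8B. RAB31 was then at an edgeR adjusted p of 0.0539 and RAB5C at 0.131. Of all 11213 genes, that fit called 403 higher and 51 lower.

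**Figure D3:**
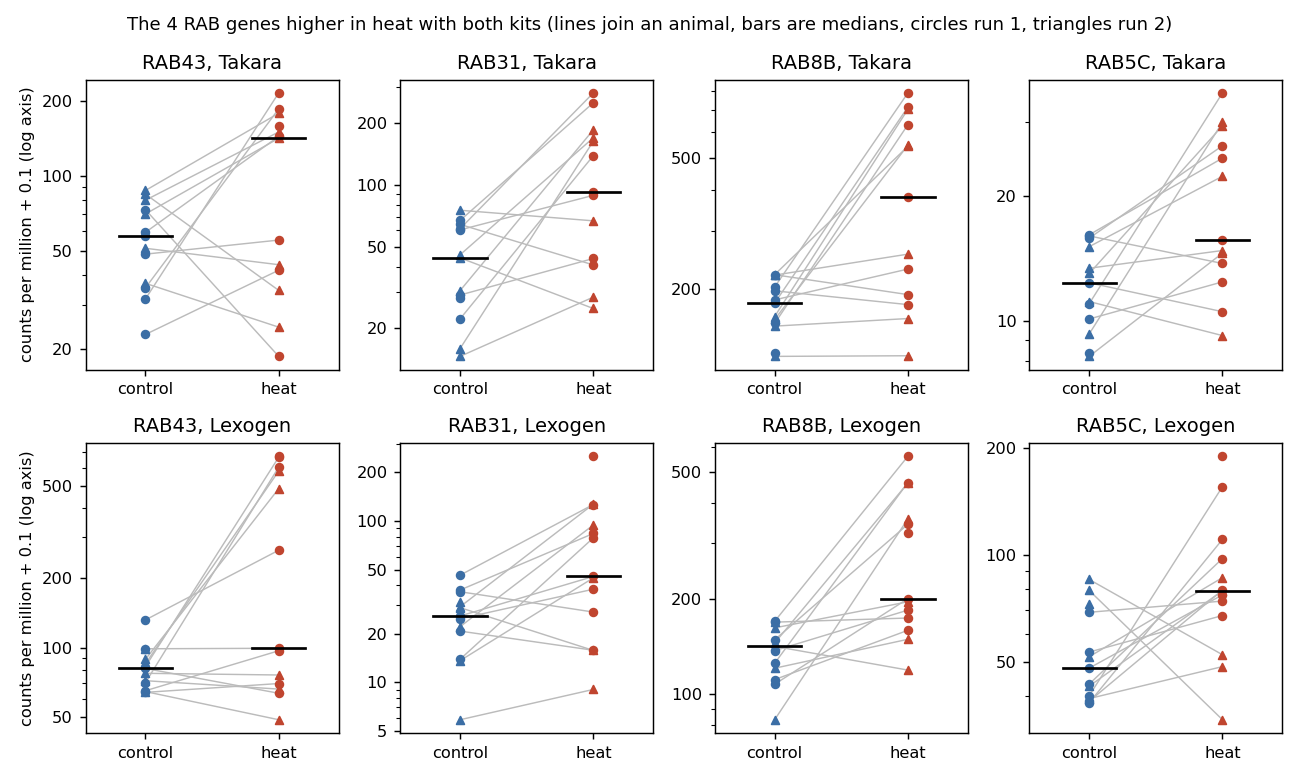
CPM plus 0.1 on a log axis for the 4 RAB genes higher in heat with both kits, Takara above and Lexogen below, with lines joining an animal and bars at the medians. Groups overlap in every panel, and for RAB8B 9 Takara and 10 Lexogen heat libraries lie above all controls of their kit.

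No RAB gene separated the groups without overlap in either kit, against 4 of 12620 genes with Takara and 1 of 11108 with Lexogen. Heat libraries above all controls for these RABs were largely those with the highest neutrophil marker sums. The summed level of 8 neutrophil marker genes (of 10 listed) ran from 4269 to 19686 CPM in Takara controls (median 11478) and from 3719 to 109000 CPM in heat (median 42300), with 8 of 13 heat libraries above all controls. Of the Takara heat libraries above all controls, these 8 held all 7 for RAB20, all 7 for RAB7A and RAB43, 7 of 8 for RAB31, 8 of 9 for RAB8B, and 8 of 11 for RAB5A. They held 6 of 8 for RAB33B, 7 of 9 for RAB10 and RAB11A, and 5 of 6 for RAB5C. In Lexogen the marker sum ran from 1180 to 6938 CPM in control and from 1626 to 32495 CPM in heat, again with 8 libraries above all controls. These held all 6 for RAB31 and RAB43, 8 of 10 for RAB8B, 4 of 5 for RAB5C, and 5 of 7 for RAB7A, which was not called there. The same overlap over all genes is not given here. Of the 7 neutrophil markers tested, 6 were higher with Takara (background 18.4%) and 5 with Lexogen (background 5.09%). CSF3R was not called in either kit (Takara log2 fold change 0.51, edgeR adjusted p = 0.164), nor was CXCR1 with Lexogen. S100A12, S100A8 and S100A9 had the highest Takara medians of the 7. They held 6700, 1854 and 1557 CPM in control and 26249, 7967 and 6036 CPM in heat. The Takara sum thus rests mostly on these 3 genes.

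Other blood cell lists moved less or the opposite way. Backgrounds for their calls were 18.4% higher and 10.5% lower with Takara, and 5.09% and 0.459% with Lexogen. With Takara the monocyte list had 3 of 7 genes higher, the T cell list 5 of 9 lower, the B cell list 1 of 8 lower, the cytotoxic lymphocyte list 1 of 5 higher, and the platelet and erythroid lists 0 called of 4 and 2 tested. The T cell sum ran from 1026 to 1935 CPM in control and from 540 to 1520 CPM in heat, lower in 11 of 12 animals, and the monocyte sum from 253 to 1083 and from 466 to 2014 CPM. With Lexogen only NCR1 of the cytotoxic list passed among these. HBA1 was at 0 with Takara, and HBA and HBA1 with Lexogen. HBB was not, with control medians of 1666 CPM with Takara and 333 CPM with Lexogen. The part of cell composition in the RAB differences was not tested.

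Whether the kits gave different heat responses was tested directly. In the 24 RNA samples with both libraries, 0 of 43 RAB genes passed the test of the kit by heat term, as did 0 of all genes (background 0%), while 3 RAB genes and 526 of all genes had an unadjusted p under 0.05. The 3 were RAB43 (log2 difference Takara minus Lexogen -0.97, SE 0.24), RAB1A (0.75, SE 0.29) and RAB10 (0.47, SE 0.23). On sense strand counts the RAB43 difference was -0.21 (SE 0.18). Sample numbers fell into 2 separate runs, a possible batch. No RAB gene passed the run by heat term with Takara (background 2.27%) or Lexogen (background 0.0222%). An unadjusted p under 0.05 was found for 5 of 43 RAB genes with Takara and 1 of 39 with Lexogen. Of all genes, 2236 of 13767 with Takara and 1060 of 13484 with Lexogen had such a p. Within the first run, of 7 control and 7 heat Takara libraries, 12 RAB genes were higher and 1 lower. Within the second, of 6 and 6, 1 was higher (RAB6A) and 0 lower, with 21 at an unadjusted p under 0.05. Over all genes the first run called 1879 higher and 751 lower of 12791, and the second 608 and 323 of 12661. In the second, 3475 of all genes had an unadjusted p under 0.05. The log2 fold change of RAB5A in Takara was 0.65 within the second run (edgeR adjusted p = 0.187) against 1.70 within the first, and that of RAB5C in Lexogen was 0.02 (edgeR adjusted p = 0.991) against 1.17 within the first.

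The kits also differed in the level they gave each RAB gene. Of the 39 reported with both, 15 were higher and 8 lower in Takara within the same RNA. Over the 43 the counts were 19 higher (background 45.3%) and 8 lower (background 26.3%), at a median of 0.48 over all genes (0.77 with the total count as library size). On sense counts the RAB balance turned, with 13 higher and 16 lower in Takara. Of all 12930 genes tested on sense counts, 5386 were higher and 3960 lower, at a median of 0.30. RAB37 had the highest ratio among the 39, with a median of 80.9 CPM in Takara and 8.50 CPM in Lexogen (log2 ratio 3.21, SE 0.22). RAB5B (2.87, SE 0.14) and RAB4B (2.41, SE 0.24) followed. In the other direction, RAB35, a RAB of endocytic recycling, had 7.14 CPM in Takara and 42.4 CPM in Lexogen (log2 ratio -2.82, SE 0.16), and RAB5C had 14.1 and 68.2 CPM (log2 ratio -2.42, SE 0.13). Isoforms of RAB5 thus fell on both sides. In all, 8 of the 39 differed by at least 4-fold, and the share of all genes at that cut is not given here.

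**Figure D4:**
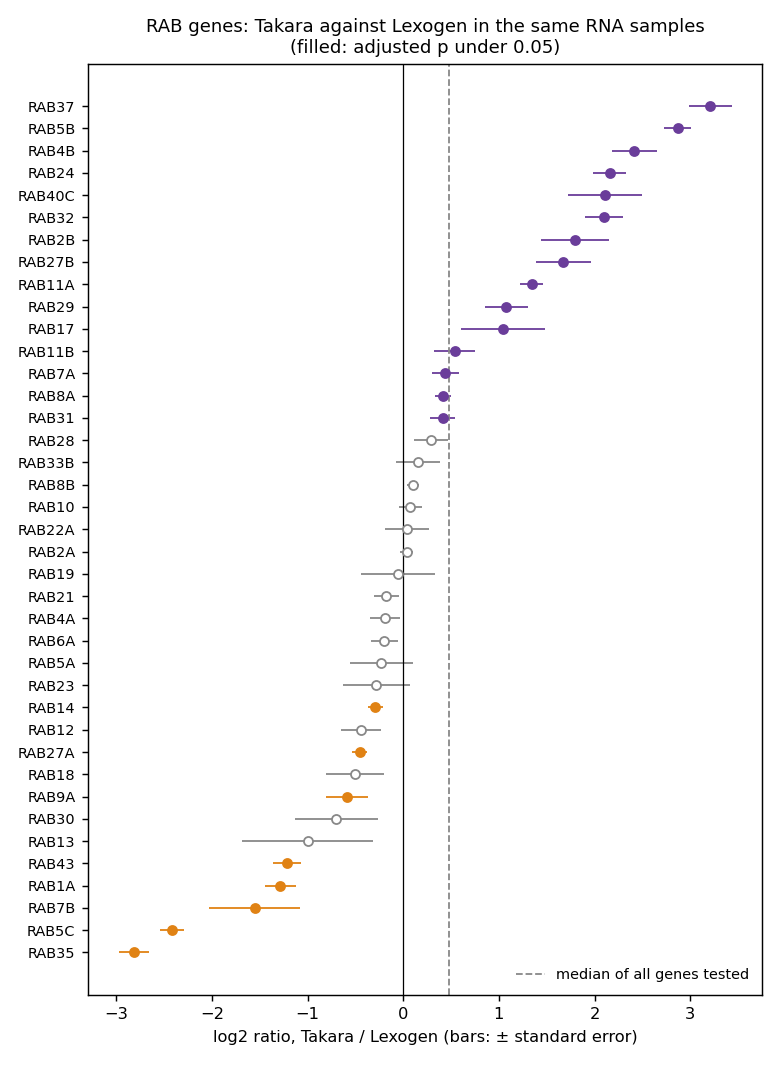
Log2 ratio of Takara over Lexogen in the same RNA samples, with its standard error, for the 39 RAB genes reported with both kits. Filled points passed an adjusted p of 0.05, 15 to the right and 8 to the left of 0, from -2.82 for RAB35 to 3.21 for RAB37, and the dashed line is the all-gene median of 0.48.

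The tables hold an unstranded count, used above, and counts for the sense and the opposite strand. In 7 reported RAB genes the unstranded total departed from the sense total by more than 10% in a kit, in 5 with Takara and 6 with Lexogen. RAB14 and RAB4A did so in Lexogen alone, at 117.9% and 112.1% of the sense total. RAB43 (chromosome 22, 59022212 to 59041820 in ARS-UCD2.0, with no overlapping gene annotated) had 64.7% of its stranded Takara counts on the opposite strand and 20.4% with Lexogen. Its sense level was 5.40 to 14.9 CPM in Takara controls (median 7.998) and 5.64 to 120 CPM in heat (median 43.1), against 15.6 to 74.3 CPM (median 48.1) and 10.3 to 116.3 CPM (median 61.3) on the opposite strand. On sense counts the log2 fold change of RAB43 was 2.50 with Takara (edgeR adjusted p = 0.000468) and 2.54 with Lexogen (edgeR adjusted p = 0.000911), both larger than on unstranded counts.

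RAB26 (chromosome 25, 1679439 to 1685522) had 51.3% of its few stranded Takara counts on the opposite strand, and its sense counts were too low to be tested. Reads that fall on 2 overlapping genes are dropped from the unstranded column, and for 3 genes this removed much of the signal. RAB5A (chromosome 1, 157198540 to 157232078) shares 976 bases with PP2D1, and its unstranded total was 29.5% of its sense total with Takara and 41.3% with Lexogen. RAB1A (chromosome 11, 63470783 to 63500641) shares 162 bases with CEP68 and kept 65.6% and 51.2%. RAB24 (chromosome 7, 38770690 to 38775780) shares 1613 bases with NSD1 and kept 83.4% and 55.3%. On sense counts RAB5A had a Takara log2 fold change of 1.87 (edgeR adjusted p = 0.000927), RAB1A 0.76 (edgeR adjusted p = 0.00372), and RAB24 passed at 0.55 (edgeR adjusted p = 0.0188). In Lexogen the sense value of RAB1A was 0.26, of the other sign than the unstranded one, and did not pass (edgeR adjusted p = 0.48).

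**Figure D5:**
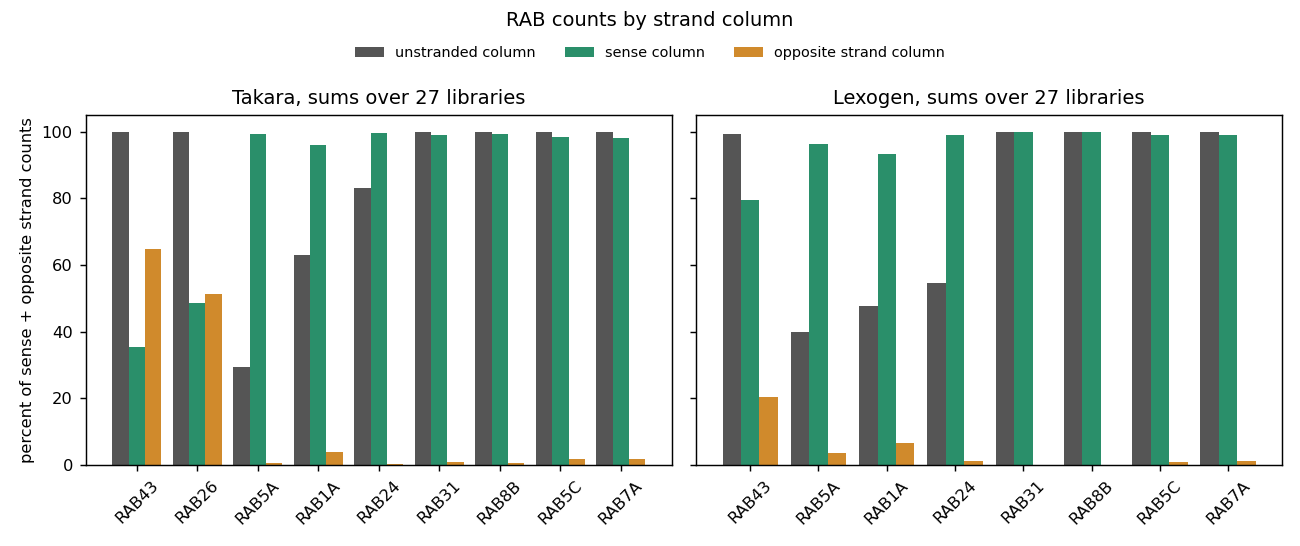
Counts in the unstranded, sense and opposite strand columns as a percentage of the sense plus opposite strand counts, summed over 27 libraries per kit. RAB43 and RAB26 hold 64.7% and 51.3% on the opposite strand with Takara, and for RAB5A, RAB1A and RAB24 the unstranded bar is shorter than the sense bar.

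Several RABs come as close paralogues, and the ratio of 2 paralogues within a library needs no scaling between libraries. As 0.5 was added to each count, the ratio can still shift with depth where counts are low. RAB7B, with a median count of 12 per Takara library, is such a case. Over 12 animals per kit, 21 ratios were tested by an exact two-sided permutation of the signs of the heat minus control differences. RAB8B gained on RAB8A in both kits. The log2 ratio of RAB8A to RAB8B changed by -0.93 in Lexogen (SD 0.61), lower in 12 of 12 animals (exact permutation p = 0.000488, the smallest possible, adjusted p = 0.0103), and by -0.71 in Takara (SD 0.72), lower in 10 of 12 animals (exact permutation adjusted p = 0.0427). The other ratios that passed did so in Takara, each at the same adjusted p of 0.0427 by the exact permutation test. RAB22A to RAB31 changed by -1.35 (SD 1.46), RAB33A to RAB33B by -1.04 (SD 1.07), RAB7A to RAB7B by 1.29 (SD 1.42) and RAB11A to RAB11B by 0.45 (SD 0.53). On sense counts RAB7A to RAB7B did not pass (exact permutation adjusted p = 0.0551). In Lexogen RAB11A to RAB11B had the other sign (-0.38, SD 1.64, lower in 9 of 12 animals) and RAB22A to RAB31 (-1.03, SD 2.01) and RAB7A to RAB7B (0.64, SD 3.33) the same, and none of these passed. On sense counts the RAB7A to RAB7B ratio did not pass (exact permutation adjusted p = 0.0551). RAB5A to RAB5B changed by 0.63 on unstranded counts and did not pass (exact permutation adjusted p = 0.0791), but on sense counts it changed by 1.03 in Takara (SD 1.14), higher in 10 of 12 animals (exact permutation adjusted p = 0.0427). The other ratios among the RAB5 isoforms and that of RAB27A to RAB27B did not pass in either kit on unstranded counts.

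RAB8A ran from 87.03 to 151 CPM in Takara controls (median 110.4) and from 84.6 to 192 CPM in heat (median 137), RAB22A from 14.9 to 25.5 (median 19.4) and from 5.50 to 25.9 CPM (median 20.9), and RAB11B from 20.99 to 29.8 (median 26.5) and from 22.8 to 39.7 CPM (median 26.9). RAB7B, found in monocytic cells, ran from 0.366 to 3.37 (median 1.64) and from 0.176 to 3.31 CPM (median 1.24). RAB33A ran from 3.77 to 8.44 (median 5.50) and from 2.21 to 8.09 CPM (median 3.71), with 7 heat libraries below all controls. These genes were not called on their own. Their called partners RAB11A ran from 106 to 174 (median 149) and from 125 to 298 CPM (median 194), and RAB33B from 8.28 to 23.5 (median 18.5) and from 11.7 to 52.9 CPM (median 28.7).

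Genes of the proteins that switch RABs or bind them were counted in the same way. Of 30 exchange factors tested, 4 were higher and 2 lower with Takara, against backgrounds of 18.4% and 10.5%. The largest change was that of RAB3IP, an exchange factor for RAB8, which ran from 8.01 to 33.04 CPM in control (median 11.3) and from 5.44 to 185 CPM in heat (median 60.3). Its log2 fold change was 2.59 (SE 0.45, edgeR adjusted p = 0.00041) with Takara and 2.14 with Lexogen.

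Among 29 TBC family genes 5 were higher and 1 lower with Takara (backgrounds 18.4% and 10.5%). TBC1D23 had 1.99 (SE 0.34) and TBC1D14 1.11 (SE 0.25), and both passed with Lexogen at 1.39 and 1.07. Of 34 effectors, 6 were higher and 1 lower with Takara (backgrounds 18.4% and 10.5%). With Lexogen 0 of 32 effectors passed (backgrounds 5.09% higher and 0.459% lower). RAB11FIP5 and RAB11FIP1, both effectors of RAB11, had 1.31 and 1.00 with Takara. UNC13D, a RAB27 effector of granule docking, had 0.83 (SE 0.20), beside 0.09 for RAB27A itself. EEA1 and RBSN, tethers of RAB5 endosomes, had 0.36 and 0.67, and RUFY1 had -0.33. Median log2 fold changes were -0.003, 0.02 and 0.01 for these 3 lists, against -0.05 for all genes and 0.38 for the RAB genes.

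The 16 RAB genes reported with neither kit were RAB1B, RAB3A, RAB3B, RAB3C, RAB6B, RAB9B, RAB15, RAB25, RAB34, RAB36, RAB38, RAB39A, RAB39B, RAB40B, RAB42 and RAB44. RAB36 had no count in any library, and RAB1B had 42 counts over all Takara and 51 over all Lexogen libraries. RAB1B shares 1185 bases with CNIH2, and its sense total was also low, at 24 and 48 counts. RAB44, a large RAB of granulocytes and mast cells, had a median of 0.252 CPM in control and 1.20 CPM in heat with Takara, higher in 10 of 12 animals, at 271 counts in all. All 62 stranded Takara counts of RAB42 were on the opposite strand. A level near 0 here says that the gene was not detectable at this depth.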

How the data were processed

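The authors trimmed reads with Trimmomatic 0.39, checked them with FastQC 0.11.9 and MultiQC 1.14, and aligned them by STAR 2.7.10b against ARS-UCD2.0. Its GeneCounts mode gave the deposited raw counts of uniquely mapped reads per gene (unstranded, sense and opposite strand). The 54 files are 3′ libraries of calf blood. Depth per library is given above, and no molecular identifiers were used.

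Unstranded counts were filtered with filterByExpr, normalised by TMM and tested per kit with edgeR 4.0.16 in R 4.3.3 (quasi-likelihood, time alone, Benjamini-Hochberg over all genes tested, adjusted p under 0.05). Replicates were separate animals. Paralogue ratios used counts plus 0.5. The same animals were sampled at both times, so animal numbers pair the libraries. Deviations of an animal's 2 libraries correlated over 0.1 in 10 of 12 animals (Takara) and 3 of 12 (Lexogen). Alternatives included DESeq2 1.42.0, other scalings and filters, sense counts, an animal block, runs and animal 20. Scripts were tested on simulated data.

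Given in full were the 12 Takara calls with the largest change, all Lexogen calls and the paralogues with a changed ratio. Other genes were named after their values were seen. Members, gene lists and tests were chosen with earlier results of these data known. Positions came from RefSeq's ARS-UCD2.0 gene table. Paralogues with near-identical stretches may lose multiply mapped reads. A further list of partner genes is not reported here.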

Additional observations from a re-analysis of the deposited data

Results flagged for a closer look

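RAB43 in Takara libraries had 64.7% of its stranded counts in the opposite strand column, and no gene in RefSeq's gene table overlaps it. Its unstranded count, used in the main comparisons, includes these reads (22869 unstranded, 8073 sense and 14799 opposite strand counts). RAB26 in Takara libraries had 51.34% of its stranded counts on the opposite strand, and its 409 unstranded counts also include them (199 sense and 210 opposite strand). Groups of 13 libraries were too large for the test of single outlying samples, and no RAB gene passed the test of the kit by heat or run by heat term, which does not show that the responses were alike.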

How the results depend on the processing

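No called gene or ratio changed direction under the alternatives run, while RAB1A in Lexogen, not called, went from -0.10 to 0.26 on sense counts. For named genes and ratios 157 values kept their side of the threshold and 50 did not, and for the counts of RAB calls 45 stayed within 1.5 times and 15 did not. With Takara, the 19 higher calls became 0 with animal 20 as control, 10 with the total count as library size, 12 within the first run of sample numbers and 1 within the second. The 2 lower calls became 1 without a filter on low counts, 0 with animal 20 as control, 4 with animal 20 as heat, 1 within the first run and 0 within the second. With Lexogen, the 4 higher calls became 0 with animal 20 as control, 0 with the animal as a replicate block, 0 within the second run and 2 without the deepest library. The 8 genes lower in Takara than in Lexogen became 16 on sense counts and 5 with the total count as library size. Calls over all genes fell too, within the second run to 608 higher and 323 lower with Takara. With Lexogen they fell to 0 within the second run and to 46 higher and 17 lower in the paired fit. The within-run fits hold fewer libraries, and the causes of the other shifts were not tested. The paired fit with Takara gave 18 higher and 2 lower: RAB43, RAB2A, RAB9A and RAB26 were lost, and RAB2B, RAB24 and RAB17 were gained. The median SE of a RAB gene was 0.38 with Lexogen and 0.19 with Takara, so smaller differences were detectable with Takara. If the labelled times were exchanged in all libraries, every heat difference would change sign.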
